A study of Mus musculus with 4 samples.

Results

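Collagen mRNAs were examined in RNA-seq counts from the livers of Fto knockout (KO) and wild-type (WT) mice. The Fto protein is an RNA demethylase. The collagen genes were taken as all protein-coding genes whose GENCODE M21 symbol consists of Col, a type number, the letter a and a chain number; 44 of the 37315 genes in the count files met this rule. They were grouped by the structure their chains build: 11 fibrillar chains, 8 chains of basement membranes (type IV and the related types XV and XVIII) and 25 others. The 4 libraries, 2 KO and 2 WT, came from liver tissue of C57BL/6 mice aged 23 weeks. The labels used here give neither the knockout allele nor the cells it acts in, and do not say whether each library is a different animal. All p-values here therefore reflect how far these 4 libraries spread, and part of that spread may be technical.

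Collagens are the main structural proteins of the extracellular matrix. Each chain carries stretches in which glycine returns at a fixed spacing (the repeat Gly-Xaa-Yaa, where Xaa and Yaa can be any residue), and chains wind around each other into a helix that only glycine, the smallest residue, leaves room for. Fibrillar collagens assemble into the cable-like fibrils that accumulate in liver fibrosis, mostly made by hepatic stellate cells and portal fibroblasts; type IV forms the sheet-like network of basement membranes; the remaining types decorate fibrils, form beaded filaments or anchoring fibrils, or span the cell membrane.

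The repeat that unites the family can be read in the coding sequences of GENCODE M21, where glycine codons begin with GG. The first 6 repeats of the longest unbroken run are shown for the fibrillar chains Col5a2, Col5a1, Col1a2 and Col3a1, the basement membrane chains Col4a1 and Col18a1 and the fibril-associated chain Col14a1, since these chains carry most of the values below; capitals mark the glycine codon that opens each repeat, and a glycine codon at another place in a repeat stays in lower case.
Col5a2: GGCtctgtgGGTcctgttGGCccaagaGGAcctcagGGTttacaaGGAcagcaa
Col5a1: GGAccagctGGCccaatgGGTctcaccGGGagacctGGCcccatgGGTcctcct
Col1a2: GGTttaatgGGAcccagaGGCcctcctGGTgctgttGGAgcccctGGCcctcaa
Col3a1: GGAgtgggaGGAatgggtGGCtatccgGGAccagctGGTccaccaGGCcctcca
Col4a1: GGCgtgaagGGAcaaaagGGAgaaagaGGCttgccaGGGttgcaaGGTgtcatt
Col18a1: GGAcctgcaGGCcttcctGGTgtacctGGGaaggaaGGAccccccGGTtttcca
Col14a1: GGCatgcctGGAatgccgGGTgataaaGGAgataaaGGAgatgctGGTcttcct

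The classes differ in how long the repeat runs without a break. In 9 of the 11 fibrillar chains the longest run held between 337 and 344 repeats, and in Col24a1 and Col27a1, the remaining fibrillar chains, 216 and 217. The 6 type IV chains had longest runs of 39 to 66 repeats, although runs of 4 or more repeats covered 74.7% to 78.6% of their codons, because each chain was cut into 22 to 27 such runs. Col15a1 and Col18a1 had longest runs of 30 repeats each. The 25 other chains ranged from 23 repeats in Col26a1 to 113 in Col9a1, Col9a2, Col9a3 and Col22a1. A break in the repeat is printed for Col4a1, where 10 codons separate runs, and for Col18a1, where 23 codons do; capitals mark the opening glycine codons of the last 3 repeats before and the first 3 after the break.
Col4a1: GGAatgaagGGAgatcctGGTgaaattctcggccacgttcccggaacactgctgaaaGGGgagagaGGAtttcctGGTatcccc
Col18a1: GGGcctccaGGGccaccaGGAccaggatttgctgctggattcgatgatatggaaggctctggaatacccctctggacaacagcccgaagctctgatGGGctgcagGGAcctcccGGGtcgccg

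**Figure D1:**
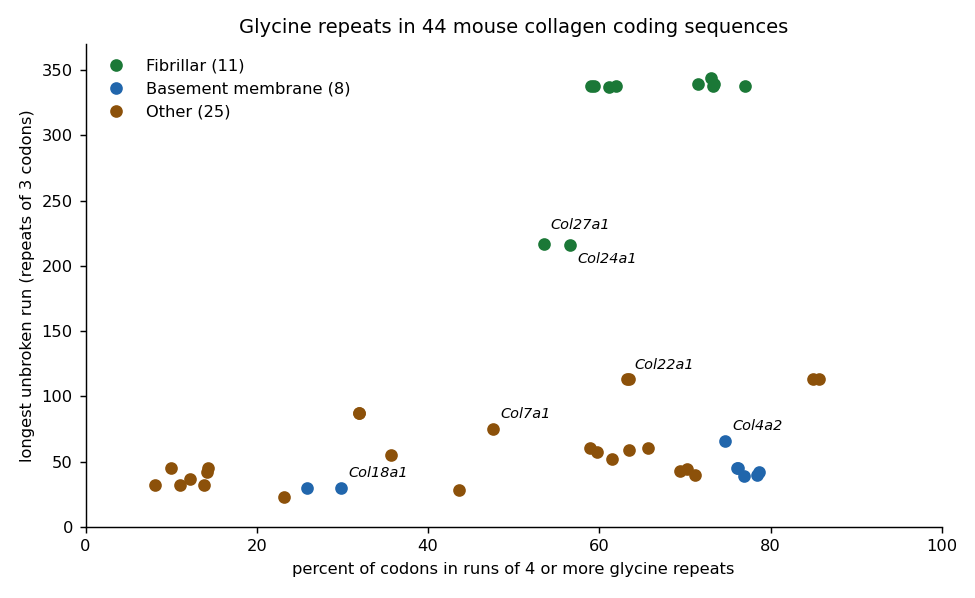
The longest unbroken run of glycine repeats (3 codons each) is plotted against the percent of codons in runs of 4 or more repeats for the 44 collagen genes, coloured by class. The 9 fibrillar chains at the top share runs of 337 to 344 repeats, and type IV chains sit low on the right.

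The libraries held 44689114 and 40947808 reads in KO and 41332870 and 39549592 in WT. With these totals, 1 read corresponded to 0.0216 to 0.0263 CPM (the read count scaled to library size, with the TMM scaling described below). Fto itself had 607 and 486 reads in the KO libraries, against 1749 and 1292 in the WT libraries (log2 fold change -1.57, adjusted p = 0.0109, edgeR quasi-likelihood test). The hepatocyte markers fitted the tissue label: all 9 on the list were tested, and together they held 92200 and 104200 CPM in KO and 80950 and 93130 CPM in WT. In KO, collagen genes tended to be lower in the library numbered 2 than in that numbered 1, and in WT this was slight. Of the 29 collagen genes tested, 24 were lower in KO replicate 2 than in KO replicate 1 (median log2 ratio -0.25) and 16 were lower in WT replicate 2 than in WT replicate 1 (median -0.08), against medians of -0.01 in KO and 0.02 in WT over all tested genes. In bulk tissue, fewer cells of a type and less RNA per cell cannot be told apart.

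Levels spanned a wide range, and 1 gene held most of the reads. Col18a1, whose product carries the endostatin fragment at its end, made up 80.8% and 77.9% of all collagen reads in KO and 81.1% and 73.8% in WT. Per kilobase of the longest transcript it was at 270 and 187 CPM in KO and 270 and 179.9 CPM in WT. The KO and WT libraries of Col18a1 therefore overlapped fully, and the value followed the replicate number in both genotypes; its log2 fold change was 0.02 (SE 0.260, adjusted p = 0.988, edgeR). Next in level per kilobase came the fibrillar chains Col5a3 and Col27a1, then Col14a1, Col4a1, Col4a2, Col3a1 and Col15a1, in the order of their means over the 4 libraries. The chains that classically make up scar fibrils were lower: Col1a2 ranked 12 and Col1a1 ranked 15 of 44.

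**Figure D2:**
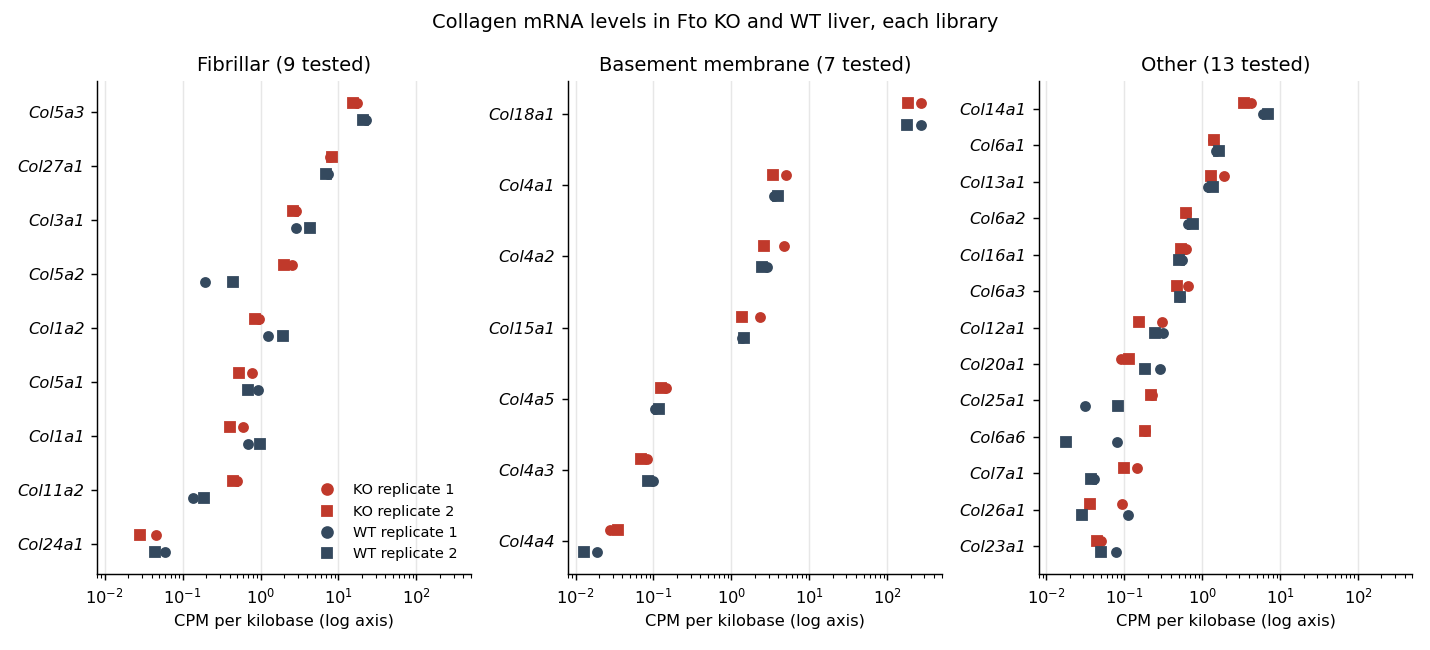
Level of each tested collagen gene in CPM per kilobase (log axis), with the KO libraries drawn above the WT libraries and circles and squares for replicates 1 and 2. Col18a1 stands near 200 to 300, more than any other member, and Col5a2, Col11a2, Col25a1, Col6a6 and Col7a1 show KO libraries to the right of both WT libraries.

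Of the 44 genes, 15 had too few reads to be tested, with 0 to 15 reads per library. They were the fibrillar genes Col2a1 and Col11a1, the cartilage collagens, the basement membrane gene Col4a6, and Col6a4, Col6a5, Col8a1, Col8a2, Col9a1, Col9a2, Col9a3, Col10a1, Col17a1, Col19a1, Col22a1 and Col28a1. Col2a1 had 1 and 1 reads in KO and none in WT, and Col6a4 had none in KO and 1 and 2 reads in WT; a count of 0 allows up to 3 reads per library, so no difference was detectable at this depth. The highest count was in Col22a1, with 2 and 15 reads in KO and 7 and 5 in WT. The filter can be passed by reads in 1 genotype alone, so counts and medians over the 29 tested genes describe those genes and not the family.

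The comparison of KO with WT liver asks which collagen mRNAs differ when Fto is disrupted. Among the 29 tested genes 1 (3.45%) was called at an adjusted p under 0.05, Col5a2, which rose in KO. Over all 13836 tested genes 1.91% were called, 0.961% higher and 0.947% lower in KO. At an unadjusted p under 0.05 there were 9 collagen genes (31.0%), 5 higher and 4 lower in KO, against 13.0% of all tested genes, 6.53% higher and 6.48% lower. The KO and WT libraries did not overlap in CPM for 18 of the 29 (62.1%), 8 higher and 10 lower in KO, against 42.0% of all tested genes, 21.6% higher and 20.4% lower. With 2 libraries against 2, an exact permutation test of a single value cannot give a p below 0.333, so the tests rest on the spread that edgeR shares across genes.

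How many collagen genes were called depended on the test, as it did over all genes. Only Col5a2 was called with DESeq2's size factors (2.04% of all tested genes), with library size alone (1.27%), with limma-voom (1.86%) and with an offset for transcript length (3.45%). DESeq2 called Col5a2, Col11a2, Col25a1 and Col14a1 (4.15% of all genes), and edgeR with no filter on low counts called 7 collagen genes (3.70%). The 7 were the genes that DESeq2 called together with Col1a2, Col6a6 and Col7a1. A replicate term gave 10 collagen genes with 19.7% of all genes called, the same 7 with Col1a1, Col4a2 and Col5a3. When the length offset was added there were 8, with 19.1% of all genes called. Col5a2 and Col4a2 were not among those 8. Leaving out a library gave 2 collagen genes without KO replicate 1 (3.23% of all genes), 4 without KO replicate 2 (3.56%), 3 without WT replicate 1 (4.42%) and 3 without WT replicate 2 (3.60%), with Col5a2 among them each time.

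**Figure D3:**
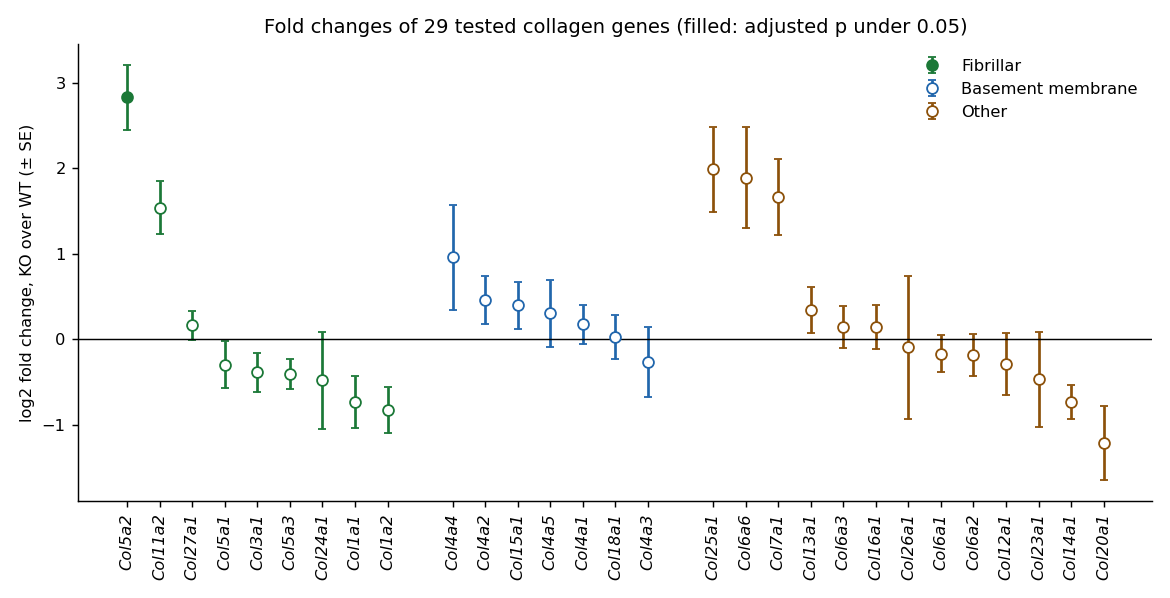
Log2 fold change of KO over WT with its SE for the 29 tested collagen genes, by class and in falling order; filled points passed an adjusted p under 0.05. Col5a2 at 2.83 is the filled point, and the fibrillar class holds both it and Col1a2 at -0.83.

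Fibrillar collagens had values in both directions, and the class holds the called gene. Over the 9 tested chains 3 log2 fold changes were positive and 6 negative, with a median of -0.39, against 0.00577 over all tested genes. Col5a2 encodes a chain of type V collagen, which is buried in type I fibrils and limits their thickness (ENSMUSG00000026042; chromosome 1, 45374321 to 45503282, minus strand, mm10). It had 781 and 523 reads in KO libraries, against 54 and 113 in WT libraries, or 16.9 and 13.1 CPM in KO and 1.27 and 2.97 CPM in WT. Both KO libraries were several times above both WT libraries, and in relative terms the WT libraries differed more from each other than the KO libraries did. Col5a2 averaged 14.97 ± 2.70 CPM in KO and 2.12 ± 1.20 CPM in WT (SD, n = 2 each). The fitted increase was 7.10-fold (2.83 ± 0.382 SE on the log2 scale; adjusted p = 0.0143 by edgeR). Between the libraries numbered 1 the log2 ratio was 3.73 and between those numbered 2 it was 2.14. The size of the increase depended on the WT libraries: without WT replicate 2 it was 3.54 on the log2 scale, and without WT replicate 1 it was 2.33, with the call kept in both.

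The partners of Col5a2 had negative values. Col5a1, which encodes the chain that pairs with that of Col5a2 in the usual type V molecule, had 305 and 179 reads in KO and 331 and 223 in WT, with overlapping groups (log2 fold change -0.30, SE 0.274, adjusted p = 0.736, edgeR). Col5a3, the gene of a further type V chain, was the second most abundant collagen mRNA per kilobase. It stood at 107.0 and 94.1 CPM in KO and 139.7 and 126.8 CPM in WT. Both KO libraries of Col5a3 were below both WT libraries, and the log2 fold change of -0.41 did not pass (SE 0.176, adjusted p = 0.385, edgeR). Per kilobase, the ratio of Col5a2 to Col5a1 was 3.25 and 3.71 in KO and 0.207 and 0.643 in WT. It separated the genotypes, but it draws on the same Col5a2 reads as the call and adds no further evidence. The ratio of Col5a3 to Col5a1 was 22.3 and 28.9 in KO and 24.6 and 29.8 in WT, so its libraries overlapped. For Col11a2 and Col5a1, described next, it was 0.629 and 0.831 in KO and 0.147 and 0.268 in WT. These ratios were described and not tested.

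Col11a2 was the next fibrillar gene by p. Its product belongs to type XI collagen, best known from cartilage, whose chains can also combine with those of type V. Col11a2 had 138 and 107 reads in KO and 35 and 43 in WT, or 2.98 and 2.67 CPM in KO and 0.825 and 1.13 CPM in WT. The groups did not overlap, and replicates lay close together in both genotypes. The fitted difference was 2.90-fold (log2 fold change 1.53, SE 0.312), and it missed the threshold (adjusted p = 0.0585, edgeR); DESeq2 gave an adjusted p of 0.0131. Col11a1, the partner chain, had no more than 2 reads in a library.

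The main chains of liver fibrils had negative values. Col1a1 and Col1a2 encode the chains of type I collagen, the chief protein of scar fibrils, and Col3a1 that of type III, which forms fine reticular fibres. Col1a1 had 164 and 95 reads in KO and 173 and 221 in WT, or 3.55 and 2.37 CPM in KO and 4.08 and 5.80 CPM in WT. Col1a2 had 237 and 182 reads in KO and 283 and 401 in WT, or 5.12 and 4.55 CPM in KO and 6.67 and 10.5 CPM in WT. For both genes the KO libraries were below the WT libraries, with WT replicate 2 the highest of the 4. The log2 fold changes were -0.73 for Col1a1 (SE 0.305, adjusted p = 0.362, edgeR) and -0.83 for Col1a2 (SE 0.272, adjusted p = 0.233), and neither passed in the main fit. With a replicate term both passed (adjusted p = 0.0491 for Col1a1 and 0.0079 for Col1a2, edgeR), and Col1a2 also passed with no filter on low counts (0.041). Col3a1 was at 16.0 and 14.3 CPM in KO and 16.0 and 23.8 CPM in WT. KO replicate 1 and WT replicate 1 of Col3a1 were nearly equal and WT replicate 2 stood apart; the log2 fold change was -0.39 (adjusted p = 0.558). The ratio of Col1a1 to Col1a2 per kilobase was 0.624 and 0.471 in KO and 0.551 and 0.497 in WT, so the balance between the type I chains overlapped between genotypes.

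The remaining tested fibrillar genes, Col27a1 and Col24a1, were not called. Col27a1, a fibrillar chain with a shorter helix, was among the steadiest members at 60.1 and 62.7 CPM in KO and 56.6 and 53.4 CPM in WT (log2 fold change 0.16, SE 0.172, adjusted p = 0.789, edgeR). Col24a1 had 8 to 15 reads per KO library and 12 to 18 per WT library, with a log2 fold change of -0.49 and an SE of 0.567. Summed over the class, fibrillar mRNA was at 33.7 and 30.4 CPM per kilobase in KO and 36.4 and 36.4 CPM per kilobase in WT, a log2 ratio of means of -0.18. Col5a3 was the largest part of that sum in all 4 libraries, and without it the log2 ratio was 0.10, with the opposite sign. That sign rested on Col5a2. Without Col5a2 alone the log2 ratio was -0.275, and without both genes it was -0.094.

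**Figure D4:**
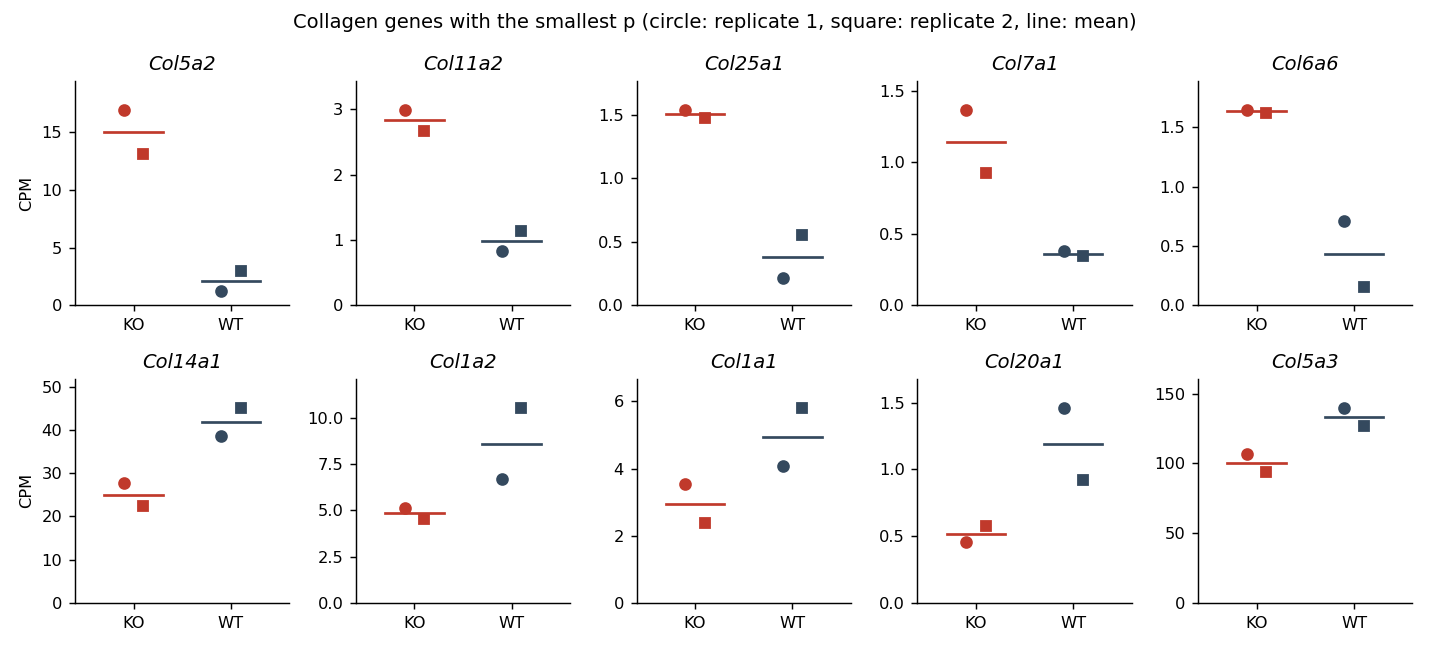
CPM in each library for the 10 collagen genes with the smallest p, with KO left of WT, circles and squares for replicates 1 and 2 and lines for the means; every axis starts at 0. Col5a2, Col11a2, Col25a1, Col7a1 and Col6a6 have both KO libraries above both WT libraries, and Col14a1, Col1a2, Col1a1, Col20a1 and Col5a3 have both below.

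Basement membrane collagens showed no called gene among 7 tested, with 6 positive log2 fold changes and 1 negative and a median of 0.30. Col4a1 and Col4a2 encode the chains of the type IV network found in nearly every basement membrane, and in the liver they are also made around the sinusoids. They are transcribed away from each other from starts whose first exons overlap by 22 bases on chromosome 8 in GENCODE M21. Without strand information, reads over that overlap cannot be assigned with certainty. Col4a1 had 1561 and 915 reads in KO and 1002 and 1014 in WT, or 33.7 and 22.9 CPM in KO and 23.6 and 26.6 CPM in WT. Col4a2 had 1412 and 681 reads in KO and 790 and 613 in WT, or 30.5 and 17.0 CPM in KO and 18.6 and 16.1 CPM in WT. In both genes KO replicate 1 was the highest library and KO replicate 2 lay within or near the WT range, so the groups overlapped. The log2 fold changes were 0.17 for Col4a1 (SE 0.229, adjusted p = 0.847, edgeR) and 0.45 for Col4a2 (SE 0.282, adjusted p = 0.583), and both were negative without KO replicate 1 (-0.13 for Col4a1 and -0.0272 for Col4a2). The ratio of Col4a1 to Col4a2 per kilobase was 1.08 and 1.31 in KO and 1.24 and 1.61 in WT. Col15a1, a collagen at the outer face of vascular and muscle basement membranes, had the same shape, with 11.9 and 7.12 CPM in KO and 7.05 and 7.46 CPM in WT (log2 fold change 0.40, adjusted p = 0.633; -0.0243 without KO replicate 1).

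The tissue-restricted type IV chains were far less abundant. Col4a3, Col4a4 and Col4a5 encode the network of the kidney filter and the lung. Col4a3 had 33 and 24 reads in KO and 36 and 28 in WT, Col4a4 had 13 and 14 in KO and 8 and 5 in WT, and Col4a5 had 44 and 33 in KO and 29 and 29 in WT. Col4a4 had the highest log2 fold change of the class, 0.95, on few reads (SE 0.611, adjusted p = 0.599, edgeR). Both KO libraries of Col4a4 were above both WT libraries, but the gene passed the filter on low counts through KO alone. Col4a5 had 0.30 (adjusted p = 0.846) and Col4a3 -0.27 (adjusted p = 0.871), again without overlap but within 1 SE of 0. Col4a3 shares 563 exon bases with the transcript C430014B12Rik on the opposite strand, so its counts are uncertain. Summed over the 6 type IV chains, the level was 10.1 and 6.33 CPM per kilobase in KO and 6.70 and 6.76 CPM per kilobase in WT. The ratio of fibrillar to type IV mRNA per kilobase was 3.33 and 4.80 in KO and 5.43 and 5.38 in WT. Both KO ratios were lower than both WT ratios; without Col5a2 and Col5a3 the ratio was 1.35 and 2.06 in KO and 2.0 and 2.25 in WT, and the groups overlapped.

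**Figure D5:**
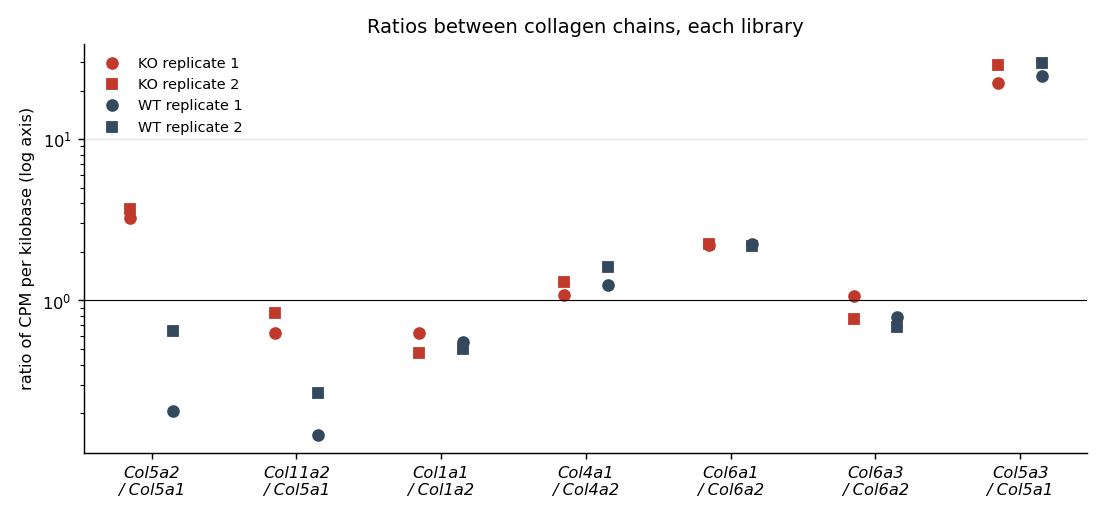
Ratios of CPM per kilobase between chains, on a log axis, with KO left of WT and circles and squares for replicates 1 and 2. The ratios of Col5a2 and of Col11a2 to Col5a1 separate the genotypes, while those within types I, IV and VI and that of Col5a3 to Col5a1 overlap.

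Among the other collagens none of 13 tested genes was called; 6 log2 fold changes were positive and 7 negative, with a median of -0.10. The fibril-associated chains decorate the surface of fibrils without forming any themselves. Of these, Col14a1, which binds type I fibrils and is prominent in liver mesenchyme, had 1278 and 899 reads in KO and 1638 and 1715 in WT, or 27.6 and 22.5 CPM in KO and 38.6 and 45.04 CPM in WT. Both KO libraries were below both WT libraries by more than either pair differed within itself. Its level in KO was 59.9% of that in WT (log2 fold change -0.74, SE 0.198); it missed the threshold with edgeR (adjusted p = 0.138) and passed with DESeq2 (adjusted p = 0.0436). Col20a1, a further chain of this kind, had 21 and 23 reads in KO and 62 and 35 in WT (log2 fold change -1.21, SE 0.436, adjusted p = 0.282). Its groups did not overlap, and WT replicate 1 was the highest. Col12a1 (log2 fold change -0.29) and Col16a1 (0.14) had overlapping groups. The fibril-associated chains together were at 5.38 and 4.35 CPM per kilobase in KO and 7.25 and 8.04 CPM per kilobase in WT, of which Col14a1 was the larger part.

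Of the transmembrane collagens, Col25a1, best known from neurons and from amyloid plaques, had 71 and 59 reads in KO and 9 and 21 in WT, or 1.53 and 1.47 CPM in KO and 0.212 and 0.551 CPM in WT. Both KO libraries stood above both WT libraries and lay close together. The fitted difference was 3.96-fold (log2 fold change 1.99, SE 0.498, adjusted p = 0.114, edgeR; 0.0311 with DESeq2). The log2 fold change was 2.80 without WT replicate 2 and 1.44 without WT replicate 1. Col13a1, a transmembrane chain of cell adhesion sites, was more abundant, at 6.07 and 4.12 CPM in KO and 3.75 and 4.31 CPM in WT. Its groups overlapped (log2 fold change 0.34, adjusted p = 0.691). Col23a1 had 10 to 13 reads per KO library and 11 to 19 per WT library (log2 fold change -0.47, SE 0.556).

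Type VI chains, which build beaded filaments close to cells, were steady apart from Col6a6. Col6a1 was at 5.69 and 5.77 CPM in KO and 6.11 and 6.80 CPM in WT, and Col6a2 at 3.07 and 3.07 CPM in KO and 3.25 and 3.73 CPM in WT. KO libraries were slightly below WT libraries for both genes, by less than 1 SE of the fit. Per kilobase the ratio of Col6a1 to Col6a2, which lie side by side on chromosome 10, was 2.22 and 2.25 in KO and 2.25 and 2.19 in WT. Their log2 fold changes were -0.17 (adjusted p = 0.830, edgeR) and -0.18 (adjusted p = 0.851). Col6a3, the long chain of the same molecule, had 0.14 (adjusted p = 0.892), with KO replicate 1 the highest library. Col6a6, a relative of Col6a3, had 76 and 65 reads in KO and 30 and 6 in WT. Its KO libraries agreed closely and its WT libraries differed from each other. The log2 fold change of Col6a6 was 1.89 (SE 0.587, adjusted p = 0.206, edgeR), and it was 3.35 without WT replicate 1 and 1.20 without WT replicate 2.

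Col7a1, the anchoring fibril collagen that ties epidermal basement membrane to the tissue beneath, had 63 and 37 reads in KO and 16 and 13 in WT, or 1.36 and 0.924 CPM in KO and 0.377 and 0.341 CPM in WT. Both KO libraries were above both WT libraries, at 3.17-fold in the fit (log2 fold change 1.66, SE 0.444, adjusted p = 0.136, edgeR). Col26a1 had 3 to 13 reads per library, with replicate 1 above replicate 2 in both genotypes. Its log2 fold change was -0.10 with an SE of 0.834. The hexagonal network collagens, types VIII and X, had 0 to 9 reads per library and were not tested.

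Genes that process collagen showed no called member. Of 18 tested genes of chain hydroxylation and folding 14 had positive log2 fold changes (median 0.20). The smallest p was that of P4ha2, a subunit of the prolyl hydroxylase that makes the helix stable at body temperature, at 12.4 and 9.99 CPM in KO and 6.34 and 5.80 CPM in WT (log2 fold change 0.88, SE 0.214, adjusted p = 0.101, edgeR). Plod3, a lysyl hydroxylase, had 0.48 (adjusted p = 0.306) and the folding enzyme gene Ppib 0.46 (adjusted p = 0.326). Among 9 tested genes of propeptide cleavage and cross-linking the median was -0.11, and among 9 of degradation it was -0.01. In the degradation list Fap, a protease of activated fibroblasts, had 14 and 15 reads in KO and 2 and 2 in WT (log2 fold change 2.69, SE 0.732, adjusted p = 0.144), and the gelatinase gene Mmp9 had 6 and 9 reads in KO and 20 and 20 in WT (-1.49, adjusted p = 0.323). Fap passed the filter on low counts through KO alone and Mmp9 through WT alone. Their differences are therefore tied to how they came to be tested. Of 7 tested collagen receptors, the inhibitory leukocyte receptor Lair1 had the smallest p, with 0.83 (adjusted p = 0.366).

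Regulators of fibrosis were divided: 9 of 18 tested genes of TGF-beta and PDGF signalling had positive values and 9 negative, and none was called. Ccn2, a matrix protein induced by TGF-beta, was at 3.18 and 3.92 CPM in KO and 5.82 and 6.96 CPM in WT (log2 fold change -0.85, adjusted p = 0.169, edgeR). The receptor gene Tgfbr1 had 0.50 (adjusted p = 0.279) and the feedback inhibitor gene Smad7 -0.55 (adjusted p = 0.282). Of 27 tested matrix partners of collagen 1 was called, against 1.91% of all tested genes. Lama3, which encodes a chain of the laminin that binds type VII collagen in skin, rose to 10.7 and 11.1 CPM in KO, against 3.79 and 3.73 CPM in WT (log2 fold change 1.53, SE 0.208, adjusted p = 0.0143). Postn, a matrix protein that binds type I collagen, had 135 and 85 reads in KO and 194 and 387 in WT (-1.54, adjusted p = 0.122), and the basement membrane linker gene Nid1 had -0.55 (adjusted p = 0.367).

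Markers of the cells that make collagen were measured beside these genes. Of 13 tested stellate cell markers 10 had negative log2 fold changes (median -0.20) and none was called; their summed level was 276.2 and 279.6 CPM in KO and 285.9 and 378.9 CPM in WT. Lrat, the vitamin A storage enzyme of stellate cells, had -0.59 (adjusted p = 0.232, edgeR), and Ecm1 -0.48 (adjusted p = 0.353). Of 6 tested myofibroblast and smooth muscle markers 5 were negative (median -0.55), and the tropomyosin gene Tpm2 fell to 7.85 and 8.12 CPM in KO, against 19.3 and 21.5 CPM in WT (log2 fold change -1.35, SE 0.188, adjusted p = 0.0149). The smooth muscle myosin gene Myh11 had -1.24 (adjusted p = 0.104). This list summed to 21.3 and 17.5 CPM in KO and 31.1 and 36.3 CPM in WT. Of 8 tested portal fibroblast markers 6 were negative (median -0.52), with Fbln2 at -1.72 (adjusted p = 0.0821) and Dpt at -0.98 (adjusted p = 0.282), and the list summed to 47.8 and 49.9 CPM in KO and 51.1 and 66.6 CPM in WT. No marker on these 3 lists was at 0 in all libraries. All 3 sums were lower in both KO libraries than in both WT libraries, as were Col1a1, Col1a2 and Col14a1 and unlike Col5a2. These separations do not describe whole lists. Without Tpm2 the myofibroblast and smooth muscle sums overlapped between genotypes, and without Ecm1 so did the stellate sums. Gas6 made up most of the portal fibroblast sum, and its own groups overlapped. It stood at 40.88 and 42.01 CPM in KO and 41.63 and 53.15 CPM in WT. The smooth muscle marker Tagln had a positive log2 fold change of 0.295. The part of these cell types in the collagen results was not tested.

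Markers of other cell types had other patterns. Sinusoidal endothelial markers were divided (7 of 11 positive, median 0.11), and Lyve1 had -1.40 (adjusted p = 0.0623, edgeR). Their sum was 231.0 and 192.3 CPM in KO and 169.8 and 238.8 CPM in WT, so the groups overlapped. The sum was highest in WT replicate 2, whereas Col4a1, Col4a2 and Col15a1 were highest in KO replicate 1. All 12 Kupffer cell markers were positive (median 0.82), 2 of them called, Marco and Csf1r, against 1.91% of all tested genes. The call of Csf1r (adjusted p = 0.0478) was lost with library size alone (0.0738), without KO replicate 1 (0.0842) and without WT replicate 1 (0.0670). The Kupffer cell markers' sum was 362.9 and 390.3 CPM in KO and 168.7 and 253.1 CPM in WT. Cholangiocyte markers summed to 33.6 and 44.9 CPM in KO and 26.7 and 39.2 CPM in WT, with 3 of 5 positive, and mesothelial markers to 2.18 and 4.05 CPM in KO and 3.32 and 3.62 CPM in WT, with 1 of 4 positive. Adipocyte markers summed to 9.12 and 31.6 CPM in KO and 35.1 and 84.7 CPM in WT. Of the 6 tested, 1 was positive, with a median of -0.39 and Cidec at -2.15 (adjusted p = 0.0711, edgeR). Cidec was the largest part of this sum in each library, and without it the sums overlapped between genotypes. Cfd was also lower in both KO libraries, whereas the other adipocyte markers overlapped. Adipoq had 0 and 71 reads in KO and 1 and 70 in WT, and Lep 0 and 36 in KO and 0 and 41 in WT. Both followed the replicate number. The part of these cell types in the collagen values was not tested.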

How the data were processed

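The deposited files hold 1 whole-number read count per Ensembl gene and library, not normalised. Per the labels' protocols, polyadenylated RNA was selected and paired reads of 101 bases were made with a TruSeq v2 kit, which does not mark the strand; per the submitters' processing notes, the authors aligned reads to mm10 with TopHat2 2.1.1 and counted them with HTSeq 0.6.0. Which annotation and counting settings they used is not given in the sources used here. GENCODE M21, on the same assembly, gave symbols for 35533 of 37315 identifiers. Every row named a gene.

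The main test was that of edgeR 4.0.16 (R 4.3.3): filterByExpr (minimum count 10, minimum total 15; 13836 genes), TMM scaling, robust quasi-likelihood F test, two-sided, genotype as the only term, Benjamini-Hochberg adjustment over all tested genes, call under 0.05. Dividing a log2 fold change by the root of its F gave the SE. CPM use TMM-scaled library sizes, and per-kilobase values the longest GENCODE M21 transcript; sums and ratios were described, not tested. The procedure was also run on simulated counts. These were drawn independently for each library, without an effect shared by same-numbered libraries, so they do not show how the test performs on these data. Libraries of the same genotype differed by more than sampling noise (chi-square per degree of freedom 100.5 in KO and 86.5 in WT). Over all pairs of libraries the range was 86.5 to 226. Each library was therefore treated as 1 replicate, which does not show that each is a different animal. Alternatives used DESeq2 1.42.0, limma 3.58.1 (voom), other scaling, no filter, loess offsets on transcript length, a replicate term and omission of each library.

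The collagen genes, classes and lists were chosen with earlier results of these data known. Named were all called collagen genes, per class the 4 highest per kilobase and the 3 with the smallest p, chains of the same molecule, Fto, and per further list called genes and up to 3 with the smallest p; the remaining collagen genes were named to account for each. Mouse Col21a1, Tstd1, Muc16 and the older symbol Ctgf, on the lists, matched no symbol. Coordinates count from 1.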

Additional observations from a re-analysis of the deposited data

How the results depend on the processing

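Col5a2 kept its direction in all 12 alternatives and its call in 11, with log2 fold changes from 2.33 to 3.54; with a replicate block and a length offset together it was 2.79 (adjusted p = 0.0609). The count of 1 called collagen gene became 7 with no filter on low counts, 4 with DESeq2, 10 with a replicate block and 8 with the block and the length offset, and 2 to 4 when a library was left out. Over all genes the count of 264 became 829, 574, 2729 and 2614 under the same alternatives, 472 with the length offset, and 460 to 633 without a library. Nothing in the labels pairs the libraries by number; deviations of same-numbered libraries correlated at 0.427 over 13836 genes, which with 2 pairs does not show pairing.

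Over the 29 tested collagen genes and 12 alternatives the sign turned in 13 of 348 values, all of genes that were not called in the main fit. Among these genes, Col4a2 was called with a replicate block (adjusted p = 0.0485, edgeR). Leaving out a library gave log2 fold changes of -0.134 to 0.418 for Col4a1, -0.0272 to 0.805 for Col4a2, -0.114 to 0.352 for Col6a3, -0.876 to 0.111 for Col12a1, -0.0243 to 0.711 for Col15a1, -0.263 to 0.346 for Col18a1 and -0.944 to 1.18 for Col26a1. Without KO replicate 1 the sign turned for Col4a1, Col4a2, Col6a3, Col15a1 and Col18a1, without KO replicate 2 for Col12a1 and Col26a1 (0.391), without WT replicate 1 for Col26a1 and without WT replicate 2 for Col18a1 (-0.251). Limma-voom gave 0.026 for Col26a1. The length offset gave -0.00228 for Col6a3 and -0.0315 for Col18a1, and -0.029 for Col18a1 with the block as well. The cause was not tested. The summed fibrillar log2 ratio of -0.18 became 0.10 without Col5a3, -0.275 without Col5a2 and -0.094 without both. That of the other collagens, -0.31, became 0.0111 with Col15a1 and Col18a1 moved into it. Of the genes on other lists, Csf1r lost its call with library size alone (adjusted p = 0.0738), without KO replicate 1 (0.0842) and without WT replicate 1 (0.0670). Under about 30 reads per library, as in Col4a4, Col23a1, Col24a1 and Col26a1, SEs of 0.556 to 0.834 limit what can be seen.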

Other observations

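The gene next to Col5a2 is another fibrillar collagen gene. Col3a1 ends 24615 bases from the end of Col5a2 on chromosome 1, and the genes are transcribed toward each other. Col5a2 had 781 and 523 reads in KO and 54 and 113 in WT, whereas Col3a1 had 740 and 574 in KO and 679 and 907 in WT. The ratio of Col5a2 to Col3a1 per kilobase was 0.887 and 0.765 in KO and 0.0668 and 0.105 in WT. Within 500 kb of Col5a2 there were 3 other protein-coding genes in the count files, a distance chosen with the values known. None was called: Col3a1 had a log2 fold change of -0.39 (adjusted p = 0.558, edgeR), the ribosome assembly gene Wdr75 0.34 (adjusted p = 0.549) and Slc40a1, which encodes the iron exporter ferroportin, -0.11 (adjusted p = 0.913).

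Collagen genes differed in which library held their highest level. KO replicate 1 was the highest for 13 of the 29 tested genes, among them Col4a1, Col4a2, Col15a1, Col13a1 and Col6a3, and also Col5a2, Col11a2, Col25a1, Col6a6 and Col7a1. WT replicate 2 was the highest for 6, Col1a1, Col1a2, Col3a1, Col6a1, Col6a2 and Col14a1, which include the main fibril-forming chains of connective tissue. WT replicate 1 was the highest for 8 and KO replicate 2 for 2, Col4a4 and Col27a1. These are descriptions of single libraries.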
